A study of Xenopus laevis with 3 samples.

Results

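The vitellogenin genes vtga2.L (Entrez gene 100037071) and vtgb1.L (398695) and the oestrogen receptor gene esr1.L (398734) were examined in liver of female African clawed frogs, Xenopus laevis. Their members are the 6 probe sets that the array annotation assigns to one of these symbols alone, out of 32475 probe sets other than controls: 3 for vtga2.L, 1 for vtgb1.L and 2 for esr1.L. The array names 11303 genes in this way. The probe sets were chosen by annotation and not by their values, but the genes were picked with earlier results of these arrays known. Frogs were injected into the body cavity on 2 consecutive days with pregnenolone at 50 mg/kg, with artemisinin at 200 mg/kg, or with the solvent DMSO, which all 3 groups received. Each compound was given to 3 frogs, how many frogs received DMSO alone is not stated clearly, and livers were taken 24 h after the last injection. The RNA of a group was pooled and hybridised to 1 Affymetrix array, so no value has a replicate error, no difference was tested, and differences between single frogs cannot be seen. Strain and age are not given in the sources used here. The study looked for genes controlled by xlCAR, a nuclear receptor of the frog whose mammalian relative governs the metabolism of drugs.

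Vitellogenins are large lipid-carrying proteins that hepatocytes of egg-laying females make and release into the blood. Oocytes take them up by a receptor of the LDL receptor family and cut them into the yolk proteins lipovitellin and phosvitin. In Xenopus the liver genes are switched on by oestradiol, which binds the receptor encoded by esr1, a transcription factor that also raises its own gene. Pregnenolone is the steroid from which the other steroid hormones are made, and artemisinin is an antimalarial drug. This frog is allotetraploid, and the endings .L and .S tell apart the copies on its longer and shorter chromosome sets. Probes can bind the other copy or a related gene, so which copy a value reports is uncertain.

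The values are log2 expression levels from robust multiarray averaging (RMA). Levels of different probe sets depend on their probes, so the ranks below describe signal and not numbers of transcripts. The medians of the arrays were 5.60 for pregnenolone, 5.62 for artemisinin and 5.62 for DMSO. The mean of a probe set over the 3 arrays had to reach that of the median probe set (5.62) for it to enter counts, which left 16238 probe sets and 7470 genes. A gene was represented by its probe set of highest mean. Differences of at least 1.5-fold (0.585 on the log2 scale) were counted as higher or lower. Of the 6 member probe sets, 5 passed the level filter, and the other is the second esr1.L probe set. Hepatocyte genes were strongly expressed, with 21 of 23 annotated genes above the filter, beside 7470 of all 11303 genes. The median levels of the 21 were 12.44 for pregnenolone, 13.04 for artemisinin and 12.73 for DMSO.

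Both vitellogenin genes gave some of the brightest signals on every array, and none of their 4 probe sets differed from DMSO by more than 0.13 on the log2 scale. The vtgb1.L probe set Xl2.3627.1.A1_at stood at 14.54 on the pregnenolone array, 14.45 on the artemisinin array and 14.51 on the DMSO array. These levels ranked 3, 4 and 3 among the probe sets of the arrays. The differences from DMSO were 0.03 for pregnenolone and -0.06 for artemisinin, and the 3 arrays lay within 0.09 of each other.

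The vtga2.L probe set with the highest mean, Xl2.17418.1.S1_at, stood at 14.39 for pregnenolone, 14.38 for artemisinin and 14.37 for DMSO. Its differences from DMSO were 0.02 and 0.01, so this probe set read alike on the 3 arrays. The probe set Xl2.2135.1.S1_at stood at 14.36 for pregnenolone, 14.25 for artemisinin and 14.36 for DMSO. The probe set Xl2.2135.2.A1_at stood at 14.35 for pregnenolone, 14.17 for artemisinin and 14.31 for DMSO. In both the artemisinin array was the lowest, by 0.11 and 0.13 against DMSO, and the pregnenolone array was within 0.04 of DMSO. The 3 probe sets of the gene spanned 0.04 with pregnenolone, 0.20 with artemisinin and 0.06 with DMSO. Since the arrays read RNA of liver tissue and not of single cells, fewer cells making a transcript and less transcript per cell cannot be told apart.

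**Figure D1:**
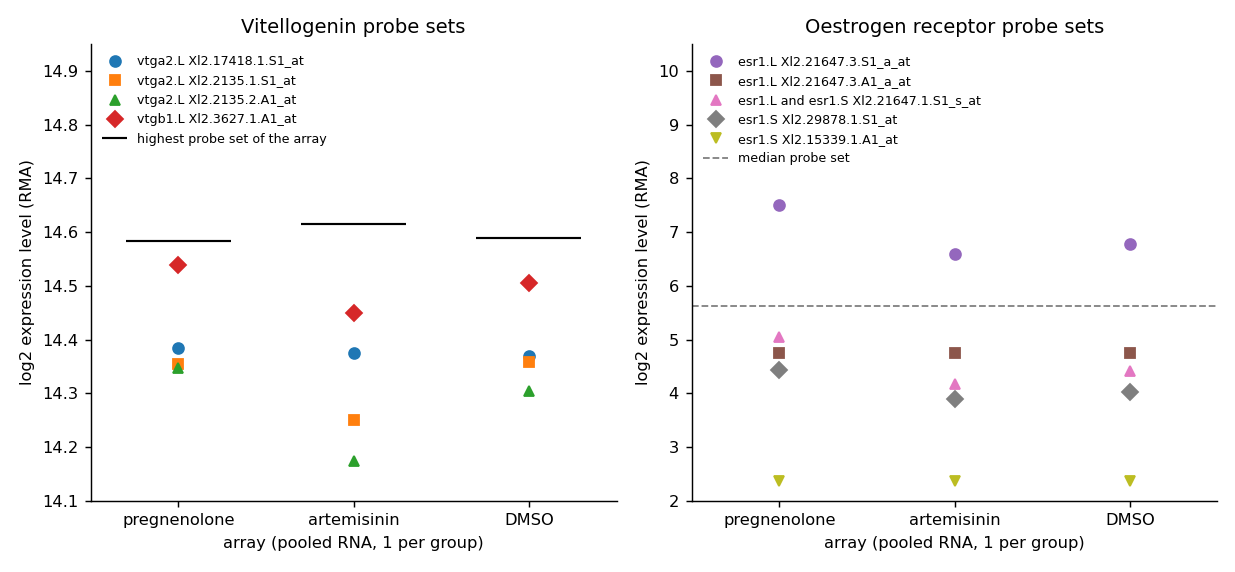
Log2 expression levels of the vitellogenin probe sets (left) and of the oestrogen receptor probe sets (right) on the pregnenolone, artemisinin and DMSO arrays, with 1 point per probe set and array. Black bars mark the highest probe set of each array and the dashed line the median probe set; the vitellogenin points lie between 14.17 and 14.54, and the esr1.L probe set above the dashed line stood at 7.51 with pregnenolone, 6.60 with artemisinin and 6.78 with DMSO.

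The vitellogenin probe sets lay close to the top of the scale. The highest value of an array was 14.58 for pregnenolone, 14.62 for artemisinin and 14.59 for DMSO. The 4 vitellogenin probe sets were below that maximum by 0.04 to 0.24 with pregnenolone, by 0.17 to 0.44 with artemisinin and by 0.08 to 0.28 with DMSO. The lowest rank among them was 28, for Xl2.2135.2.A1_at on the artemisinin array, where 99.9% of probe sets still lay below it. The 5 highest probe sets with 1 symbol on the DMSO array belonged to the globin gene hbg1.L (2 probe sets), vtgb1.L, the fibrinogen gene fgg.L and the ribosomal protein gene rps27.S.

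Differences between arrays were small for all probe sets at this height. Among the 52 probe sets with a mean level of 14 or more, 0 differed from DMSO by 1.5-fold with either compound, and the SD of the log2 differences was 0.08 for pregnenolone and 0.07 for artemisinin. Between levels 10 and 11 the SD was 0.52 and 0.40 over 725 probe sets, and 19.0% and 7.17% passed 1.5-fold. Over all probe sets above the level filter, 10.4% differed by 1.5-fold with pregnenolone and 5.71% with artemisinin. A mean level of 14 leaves out probe sets that left the top on 1 array. Of the 50 probe sets at 14 or more on the DMSO array, 1 was 1.5-fold lower with pregnenolone and 0 were higher, beside 4.93% lower and 5.49% higher of all probe sets above the filter. With artemisinin 0 of the 50 were lower or higher, beside 2.77% and 2.94%. The lower probe set belongs to hrg.L, the histidine-rich glycoprotein of plasma, which stood at 13.30 for pregnenolone against 14.19 for DMSO. The largest upward difference from this height was 0.20 for pregnenolone and 0.17 for artemisinin.

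The places of the vitellogenin differences within these 52 rest on hundredths of a log2 unit and differed between probe sets of vtga2.L. With pregnenolone, 16 to 33 of the 52 had a lower difference from DMSO than each vitellogenin probe set. With artemisinin, 1 had a lower difference than Xl2.2135.2.A1_at, 2 than Xl2.2135.1.S1_at, 7 than vtgb1.L and 30 than Xl2.17418.1.S1_at. The probe sets of vtga2.L share their target gene and are not independent readings.

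**Figure D2:**
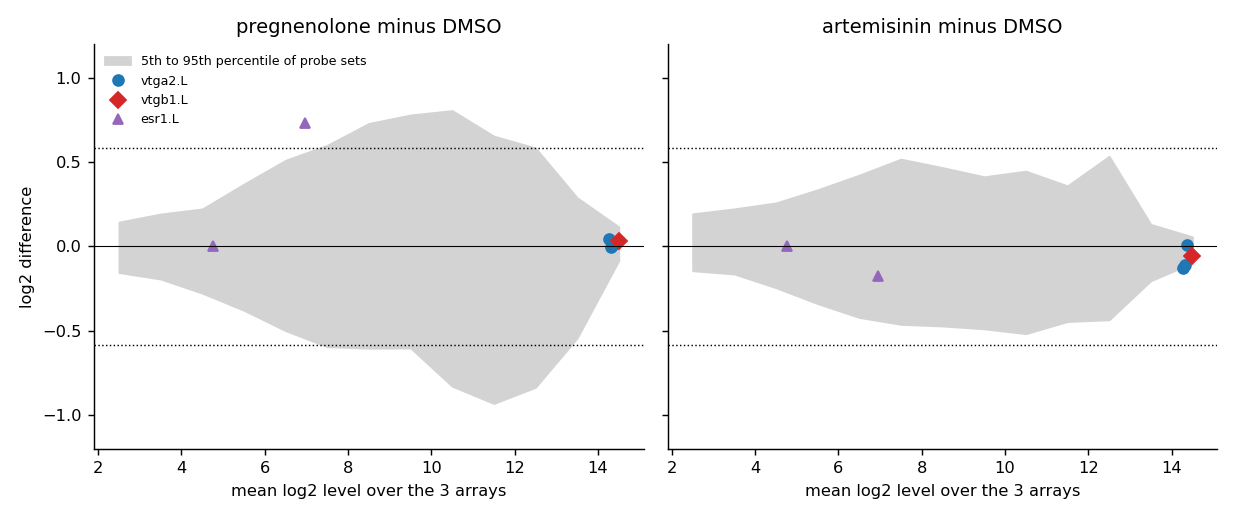
Log2 difference from DMSO against the mean log2 level over the 3 arrays for the member probe sets, for pregnenolone (left) and artemisinin (right). The grey band runs from the 5th to the 95th percentile of all probe sets in bins of 1 log2 unit and the dotted lines mark 1.5-fold; the band is narrow at the level of the vitellogenins, and the brighter esr1.L probe set lies above it with pregnenolone at 0.73.

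The controls added to the hybridisation mix offer a second view of the scale. Affymetrix arrays carry probe sets for the bacterial transcripts bioB, bioC and bioD and the phage transcript cre, which are spiked in at rising amounts, and whether equal amounts went onto each array is not stated. Their median level was 10.48 for pregnenolone, 10.60 for artemisinin and 10.30 for DMSO at the 6 bioC probe sets. It was 13.91 for pregnenolone, 14.01 for artemisinin and 13.78 for DMSO at the 6 cre probe sets. The median difference from DMSO with pregnenolone was 0.18 for bioB, 0.17 for bioC, 0.16 for bioD and 0.12 for cre. With artemisinin it was 0.30 for bioB, 0.29 for bioC, 0.28 for bioD and 0.18 for cre. The controls were thus higher on both compound arrays than on the DMSO array, and the difference was smallest for cre, whose probe sets stood highest. The cre probe sets that reached 14 on the DMSO array had differences of 0.09 and 0.11 with pregnenolone, and of 0.12 and 0.14 with artemisinin. Aligning the arrays on the 21 bioB, bioC and bioD probe sets lowers every gene by 0.16 for pregnenolone and by 0.29 for artemisinin, and places vtgb1.L at -0.13 and -0.35 and vtga2.L at -0.15 and -0.28 against DMSO. The sign of the small vitellogenin differences therefore depends on the scaling, and removal of a loess trend also placed vtga2.L at -0.02 with pregnenolone. This alignment shifts all genes by 1 constant, so it cannot change their order.

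**Figure D3:**
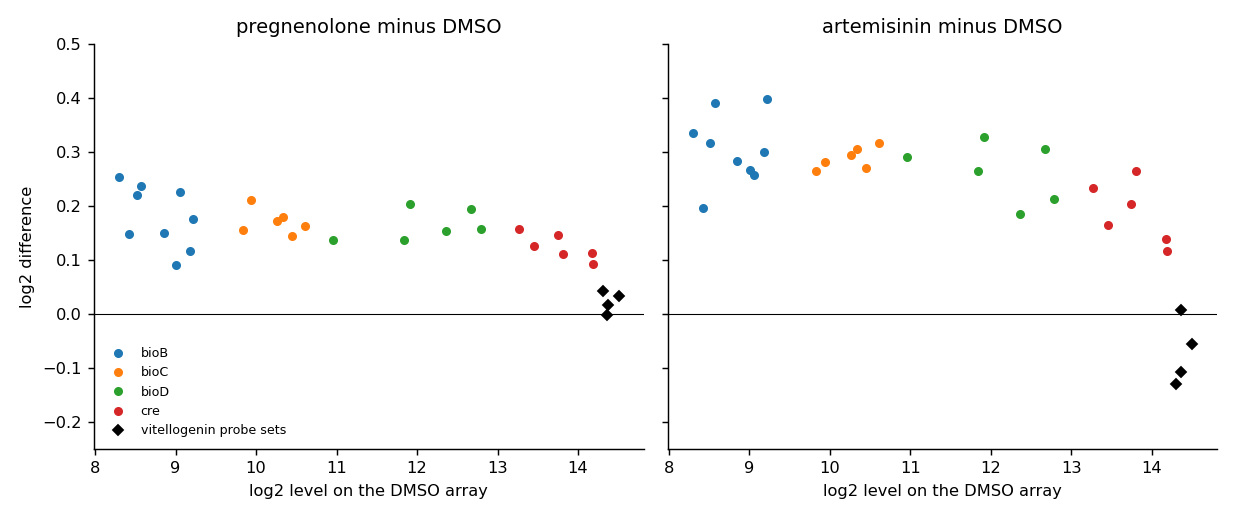
Log2 difference from DMSO of the spiked hybridisation controls bioB, bioC, bioD and cre and of the 4 vitellogenin probe sets against their level on the DMSO array, for pregnenolone (left) and artemisinin (right), with 1 point per probe set. The controls lie above 0 on both compound arrays and the points come closer to 0 towards the top of the scale.

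The genes closest to the vitellogenins in their 3 levels were others with signals near the top of the scale, which the measure fixes. Likeness was measured as the Euclidean distance over the log2 levels of the 3 arrays. For vtga2.L the nearest were the ribosomal protein genes rps27.S (0.02), rps2.L (0.06) and rpl38.L (0.08). For vtgb1.L they were hbg1.L (0.11), fgg.L (0.11) and rps27.S (0.21).

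The oestrogen receptor gene was read in the middle of the scale, where differences between arrays were wider than at the height of the vitellogenins. Its brighter probe set, Xl2.21647.3.S1_a_at, stood at 7.51 on the pregnenolone array, 6.60 on the artemisinin array and 6.78 on the DMSO array. It ranked 7305, 11333 and 10520, in the upper part of the array but far from the top. The pregnenolone array was the highest of the 3, and the artemisinin array the lowest. Pregnenolone exceeded DMSO by 0.73 on the log2 scale, or 1.66-fold, and artemisinin differed from DMSO by -0.18. Between the compounds, given at different doses, the difference of artemisinin minus pregnenolone was -0.91, past 1.5-fold like that of 6.53% of genes lower with artemisinin than with pregnenolone.

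Among the 7470 genes above the filter, 11.2% differed by 1.5-fold with pregnenolone, with 6.22% of all genes higher and 5.02% lower, and 307 genes (4.11%) exceeded the esr1.L difference. Of 1878 genes whose mean level lay within 0.5 of that of esr1.L, 68 (3.62%) were at or above it. With artemisinin 5.98% differed, with 3% of all genes higher and 2.99% lower, and esr1.L was in neither class. For scale, the probe sets of 1 gene differed from each other with an SD of 0.27 for pregnenolone minus DMSO and 0.22 for artemisinin minus DMSO, over 1284 genes. The pregnenolone difference of esr1.L was larger than this spread and the artemisinin difference was smaller. That spread holds no variation among frogs or among hybridisations.

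The other probe sets of the receptor read low. The second esr1.L probe set, Xl2.21647.3.A1_a_at, stood at 4.76 on all 3 arrays with no difference between them. Identical values are frequent at such levels: 6464 of the 32475 probe sets had the same value on every array, among them 29.4% of those between levels 4 and 5. A probe set annotated to both esr1.L and esr1.S stood at 5.05 for pregnenolone, 4.18 for artemisinin and 4.41 for DMSO, with differences from DMSO of 0.64 and -0.23. The esr1.S probe set Xl2.29878.1.S1_at stood at 4.44 for pregnenolone, 3.89 for artemisinin and 4.02 for DMSO, with differences of 0.42 and -0.14. The second esr1.S probe set was at 2.37 on every array. In all 3 receptor probe sets that varied, pregnenolone was highest and artemisinin lowest, but 2 of them lay below the level filter and the 3 may share transcripts. The mean over both esr1.L probe sets gave a difference of 0.37 for pregnenolone, below 1.5-fold. Alignment on the spiked controls placed the brighter one at 0.57 for pregnenolone, also just below 1.5-fold, and at -0.47 for artemisinin, among genes that shifted by the same amount.

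Other genes shared the esr1.L pattern. Over its 2 differences from DMSO the nearest were the RNA ligase gene rtcb.L (Euclidean distance 0.02), the Golgi transport gene bet1.S (0.04) and fam102a.L (0.04). Of the 7470 genes above the filter, 86 lay within 0.2. These 3 genes stood at 8.59, 9.71 and 9.16 with pregnenolone, at 7.70, 8.84 and 8.21 with artemisinin and at 7.87, 9.01 and 8.42 with DMSO.

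Genes of the yolk and oestrogen pathway were gathered in 8 lists, with 152 genes above the level filter. With pregnenolone, 18 were at least 1.5-fold higher, 11 lower and 123 within that range, with a median difference of 0.01. Among the 18 is sult2b1.S, whose mean passed the filter only through its pregnenolone value. With artemisinin, 9 were higher, 5 lower and 138 within it, with a median of -0.03. The medians over all 7470 genes were 0.00 for both compounds, and 11.2% and 5.98% of them passed 1.5-fold. With pregnenolone 6.22% were higher and 5.02% lower, and with artemisinin 3% and 2.99%, for comparison with each list below. These shares are not matched for level, and the lists differ in level. With pregnenolone 7.79% of probe sets passed 1.5-fold at levels 6 to 7, 19.0% at 10 to 11 and 3.70% at 13 to 14.

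The yolk precursor list held 4 genes and none reached 1.5-fold. Apart from the vitellogenins it contains apob.S, apolipoprotein B, and mttp.2.S, the transfer protein that loads lipid onto apolipoprotein B. The gene apob.S stood at 11.99 for pregnenolone, 11.61 for artemisinin and 11.54 for DMSO, with differences of 0.45 and 0.07, and its second probe set differed by 0.18 and -0.02. The gene mttp.2.S stood at 13.92, 13.71 and 13.67 in the same order, with differences of 0.25 and 0.04. Both were highest on the pregnenolone array.

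Of 8 receptor genes above the filter, esr1.L was the only one at least 1.5-fold higher with pregnenolone and ghr.L, the growth hormone receptor, the only one lower. The gene ghr.L stood at 7.37 for pregnenolone, 8.74 for artemisinin and 8.85 for DMSO, a difference of -1.48 for pregnenolone and of -0.12 for artemisinin. The progesterone receptor gene pgr.L was low, at 5.96 for pregnenolone, 5.74 for artemisinin and 5.40 for DMSO, with differences of 0.55 and 0.34. With artemisinin 0 of the 8 reached 1.5-fold, and the largest difference was 0.43, for the mineralocorticoid receptor gene nr3c2.L. The glucocorticoid receptor copy nr3c1.S differed by -0.31 with pregnenolone and -0.35 with artemisinin, and esrra.L, an oestrogen-related orphan receptor, by 0.14 and 0.27. The median over the 8 genes was -0.06 for pregnenolone and 0.02 for artemisinin.

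Among 29 genes for receptor chaperones and coregulators, 28 stayed within 1.5-fold with each compound. With pregnenolone the transcription factor gene gata6.S stood at 9.68 against 8.68 with DMSO, a difference of 0.996, and its second probe set differed by 0.96. Smaller differences were those of phb2.S (0.51), a repressor of the oestrogen receptor, ncoa4.L (0.42) and the HSP90 cochaperone gene ptges3.L (0.38). With artemisinin the RNA helicase gene ddx5.S stood at 10.17 against 9.46 with DMSO, a difference of 0.71. It was followed by the immunophilin gene fkbp4.L (0.55), the methyltransferase gene prmt1.L (0.52) and hsp90ab1.S (0.51), whose other 3 probe sets differed by 0.19 to 1.16. The medians were 0.00 for pregnenolone and 0.04 for artemisinin.

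Oestrogen response genes, taken largely from mammalian cells, went both ways. Of 16 above the filter, 3 were higher and 1 lower with pregnenolone, beside 6.22% and 5.02% of all genes. The 3 were xbp1.L (0.84), a transcription factor of the secretory pathway, the cyclin gene ccnd1.L (0.83) and myc.L (0.70 at both of its probe sets). The fourth was igfbp1.S, an IGF binding protein gene, which stood at 7.94 for pregnenolone against 9.15 for DMSO, a difference of -1.21. The other copies of these genes differed by -0.01 for ccnd1.S, 0.54 for myc.S and 0.02 for igfbp1.L. With artemisinin igfbp1.L (0.74) and jun.L (0.59) were higher and ccnd1.S (-0.61) lower, and myc.S differed by 0.50. In frog liver the retinol carrier gene rbp4 is known to respond to oestrogen: rbp4.L stood at 14.21 for pregnenolone, 13.96 for artemisinin and 13.90 for DMSO, and rbp4.S at 12.96, 13.02 and 13.07. The list medians were 0.05 and 0.03.

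Serum protein genes, several of which oestrogen lowers in frog liver, were mostly near DMSO. Their median level was high, at 13.33 for pregnenolone, 13.49 for artemisinin and 13.66 for DMSO. Small differences are usual at that height: at levels 13 to 14, 3.70% of probe sets passed 1.5-fold with pregnenolone and 0% with artemisinin. Of 12 genes 2 were lower and 0 higher with pregnenolone, beside 5.02% and 6.22% of all genes. The transthyretin gene ttr.L stood at 8.46 for pregnenolone, 11.20 for artemisinin and 10.32 for DMSO, with differences of -1.86 and 0.88. The transferrin copy tf.L stood at 12.21, 13.25 and 13.04 in the same order, with differences of -0.83 and 0.21, while tf.S differed by -0.04 and 0.14. The next were itih2.S (-0.57), a subunit of an inter-alpha-trypsin inhibitor, and the antiprotease copy serpina1.S (-0.56). With artemisinin 2 genes were higher, ttr.L and the fibrinogen copy fga.S (0.70), and 0 were lower, and serpina1.S differed by -0.24. The medians were -0.09 for pregnenolone and 0.00 for artemisinin.

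The secretory pathway, by which vitellogenin leaves the hepatocyte, is the longest of the lists. With pregnenolone 9 of 54 were higher and 4 lower, beside 6.22% and 5.02% of all genes, and the median was 0.24. The list was bright, with a median level of 10.79 on the DMSO array. At levels 10 to 11, 19.0% of probe sets passed 1.5-fold in either direction with pregnenolone. That share covers probe sets of a narrow range of levels and joins both directions. Whether the counts are particular to the list was not tested. The higher ones included ssr4.L (1.49), a subunit of the translocon-associated complex, the ER chaperone copy hspa5.S (1.22), the COPII coat gene sec24d.L (1.16, and 0.40 at a second probe set of low level) and the signal recognition particle gene srp9.L (0.97). With artemisinin 2 were higher and 2 lower, and the median was -0.06. The higher ones were both hspa5 copies, hspa5.S at 1.22 and hspa5.L at 0.97, and the lower ones were the folding enzyme copy pdia6.S (-0.69) and the chaperone copy hsp90b1.L (-0.63). With pregnenolone hspa5.L differed by 0.80, pdia6.S by -0.93 and hsp90b1.L by -0.97. Both comparisons use the same DMSO array.

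Of 24 genes of steroid metabolism, 4 were higher and 2 lower with pregnenolone, and 2 were higher and 2 lower with artemisinin. Over all genes 6.22% were higher and 5.02% lower with pregnenolone, and 3% and 2.99% with artemisinin. The aldo-keto reductase gene akr1c2.L stood at 8.05 for pregnenolone, 11.33 for artemisinin and 6.37 for DMSO, with differences of 1.68 and 4.96. The other higher genes with pregnenolone were the sulfotransferase gene sult2b1.S (0.97), the hydroxysteroid dehydrogenase gene hsd17b7.S (0.92), which also acts in cholesterol synthesis, and fdxr.L (0.77), the reductase that feeds electrons to mitochondrial steroid hydroxylases. The gene sult2b1.S stood at 6.47 for pregnenolone, 5.67 for artemisinin and 5.50 for DMSO. Its mean passed the level filter only through its pregnenolone value, so the filter helped to fix the count of higher genes. The other higher gene with artemisinin was the steroid reductase copy akr1d1.S (1.17), and the lower ones were srd5a3.S (-0.80) and hsd11b1l.2.S (-0.78). The aromatase gene cyp19a1.L, whose product makes oestrogens, was below the level filter with a mean of 5.16, as was cyp17a1.L at 5.11. The medians were -0.01 for pregnenolone and -0.12 for artemisinin.

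Of 5 measured genes of the receptor family that includes the oocyte vitellogenin receptor, 1 was lower with pregnenolone, beside 5.02% of all genes. It was lrp2.L, which stood at 6.96 for pregnenolone, 8.15 for artemisinin and 8.29 for DMSO, with differences of -1.33 and -0.14. The chaperone gene of these receptors, lrpap1.L, differed by -0.49 and -0.32, and a second probe set of it by 0.04 and 0.22. The remaining 3, lrp1.S, lrp5.L and lrp6.L, lay between -0.29 and 0.04 with pregnenolone and between 0.00 and 0.29 with artemisinin. The medians were -0.29 and 0.00. The gene of the vitellogenin receptor proper, vldlr, which acts in oocytes, had its copy vldlr.S below the level filter at a mean of 4.46.

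**Figure D4:**
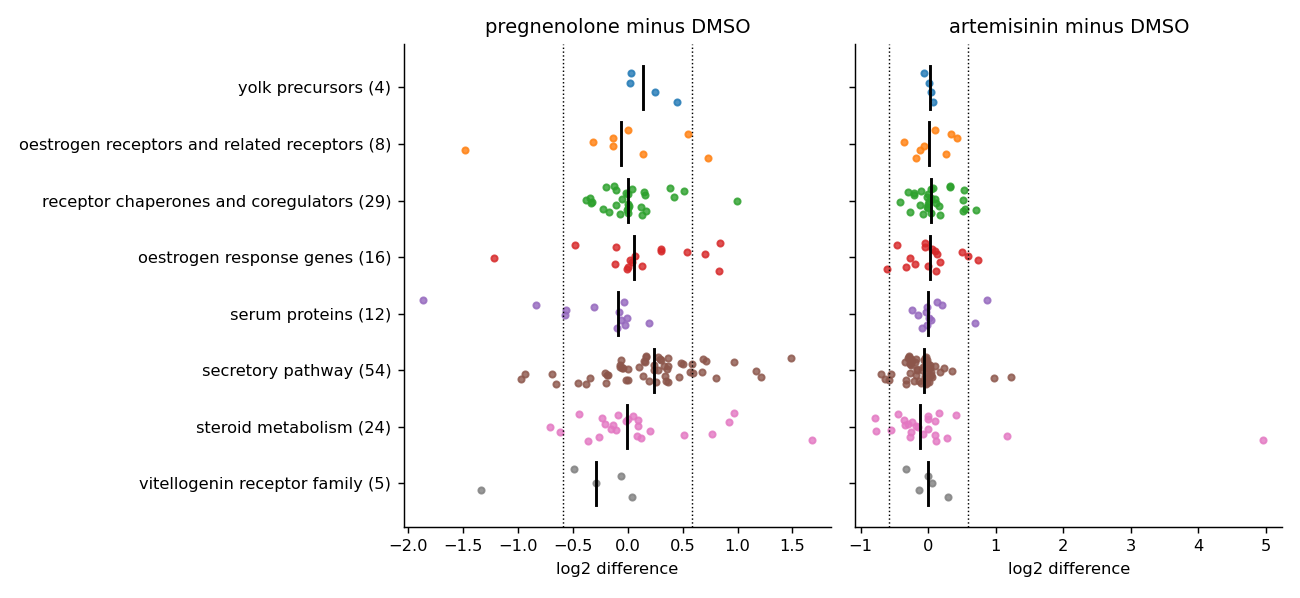
Log2 differences from DMSO of the genes of 8 lists for pregnenolone (left) and artemisinin (right), with 1 point per gene, the number of genes in brackets, black bars at the medians and dotted lines at 1.5-fold. The secretory pathway is shifted to the right with pregnenolone, at a median of 0.24, and the far right point of steroid metabolism with artemisinin is akr1c2.L at 4.96. The 2 panels have different ranges on the horizontal axis.

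The genes beside the vitellogenins on their chromosomes were read lower on the scale. In the RefSeq gene table of the assembly Xenopus_laevis_v10.1, vtga2.L and vtgb1.L lie on chromosome 4L with 1 gene between them, and vtgb1.S, which no probe set here names, lies at the matching place of chromosome 4S. All genes up to 5 places to each side were looked up, a window set after the data were available. The gene next to vtga2.L is ssx2ip.L, whose product anchors microtubules at centrosomes, and it stood at 7.92 for pregnenolone, 6.23 for artemisinin and 6.20 for DMSO. Its copy ssx2ip.S, next to vtgb1.S, stood at 7.04 for pregnenolone, 5.29 for artemisinin and 5.29 for DMSO. The gene on the other side of vtgb1.S is ctbs.S, for the lysosomal enzyme chitobiase, and it stood at 10.09 for pregnenolone, 7.92 for artemisinin and 8.62 for DMSO.

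The pregnenolone array was the highest for all 3 of these adjoining genes, with differences from DMSO of 1.72 for ssx2ip.L, 1.75 for ssx2ip.S and 1.47 for ctbs.S, or 3.29-fold, 3.37-fold and 2.78-fold. At most 0.669% of genes above the filter had a difference as high as that of ssx2ip.L or of ctbs.S. No such place is given for ssx2ip.S, whose mean passed the filter only through its pregnenolone value. With artemisinin the differences were 0.03 for ssx2ip.L, 0.00 for ssx2ip.S and -0.70 for ctbs.S. The vitellogenins cannot be set against these genes, since a 1.5-fold rise from their level would have passed the maximum of the pregnenolone array, 14.58. The copies of 1 gene may share signal through their probes, so ssx2ip.L and ssx2ip.S need not be separate readings. Genes 3 to 5 places away differed less: gng5.L by -0.02, gng5.S by 0.00, rpf1.L by -0.20, bxdc5 by -0.13 and c1orf52.S by 0.27 with pregnenolone. With artemisinin these 5 genes lay between -0.13 and 0.24. The copy ctbs.L, next to vtgb1.L, is named by no probe set here.

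**Figure D5:**
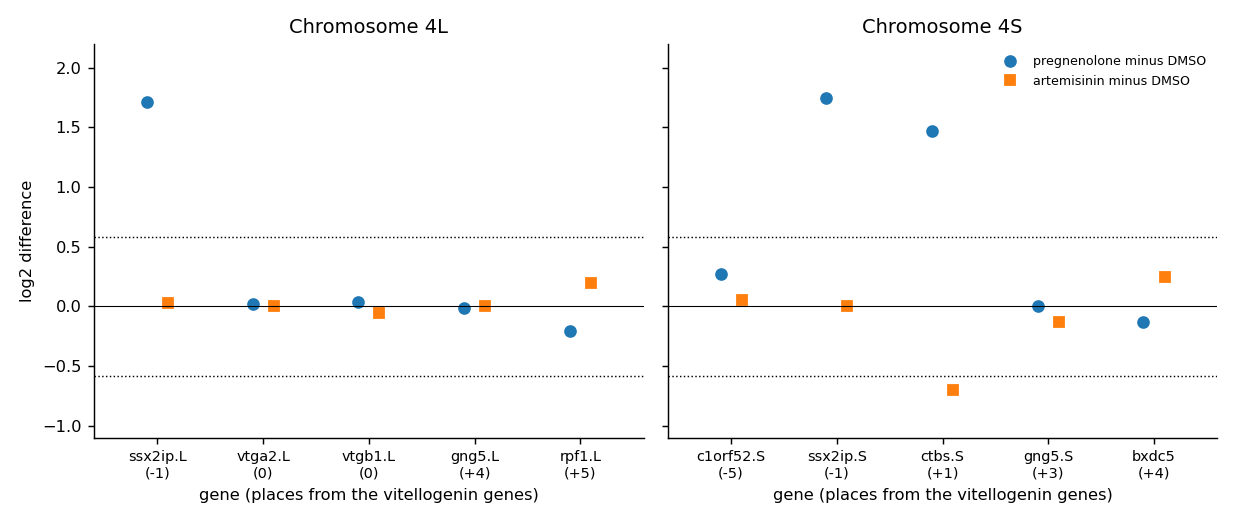
Log2 differences from DMSO of the vitellogenin genes and of measured genes up to 5 places away on chromosomes 4L (left) and 4S (right), with circles for pregnenolone, squares for artemisinin, places from the vitellogenin genes in brackets and dotted lines at 1.5-fold. The adjoining genes ssx2ip.L, ssx2ip.S and ctbs.S lie between 1.47 and 1.75 with pregnenolone, and the vitellogenins, read near the top of the scale, lie near 0.

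Markers of other cell types differed between the pools, and their part in the results above was not tested. Beside the counts below, 6.22% of all genes were higher and 5.02% lower with pregnenolone, and 3% and 2.99% with artemisinin. The level filter was passed by 7470 of all 11303 genes. Of 25 annotated exocrine pancreas genes 7 passed the filter, and 6 of these were 1.5-fold lower with each compound. The remaining gene, cela1.4.L, differed by -0.13 with each compound at the probe set used. Its other probe sets differed by -0.36 with each compound, and by -4.79 with pregnenolone and -5.18 with artemisinin. The means of cela3a.S and ctrb1.L over the compound arrays lay below the filter, as did those of ctrc.L and prss3.S. These genes passed only through their DMSO values, so the filter helped to fix this count. The summed signal of the 7 was 8.61 on the log2 scale for pregnenolone, 8.49 for artemisinin and 13.13 for DMSO. Of 15 erythrocyte genes 7 were lower with artemisinin and 0 higher (2 lower and 1 higher with pregnenolone), with summed signals of 15.63 for pregnenolone, 15.42 for artemisinin and 15.57 for DMSO. That sum rests mostly on hbg1.L and hba1.S (14.56 and 13.99 with DMSO), near the top of the scale, where differences are small. Of 21 biliary, stellate, endothelial and smooth muscle genes 9 were lower with each compound, with 0 higher for pregnenolone and 1 for artemisinin, and the sums were 12.67, 12.72 and 13.14. Among the lower ones is tagln.S, which also passed the filter only through its level on the DMSO array. Of 6 leukocyte genes 0 reached 1.5-fold, with sums of 12.32, 12.41 and 12.68. For hepatocyte genes, of which 1 was higher and 4 lower with pregnenolone and 3 higher and 0 lower with artemisinin, the sums were 17.36, 17.50 and 17.48. Of 16 annotated oocyte and ovary genes only ybx2.L and ybx2.S passed the filter, with a sum of 7.05 for pregnenolone, 7.04 for artemisinin and 6.84 for DMSO. The oocyte markers zp2.L, zar1.S, dazl.L, velo1.L and figla.L had mean levels of 2.62 to 4.79, all below the median probe set.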

How the data were processed

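The members and gene lists were chosen with earlier results of these data known. Liver RNA pooled by group was measured on 3 arrays, 1 per group. RMA is named in the submitters' processing notes, with no version given in the sources used here. The deposited values are log2 expression levels per probe set; the base was taken from the definition of RMA. RMA equalises the arrays' distributions, and many probe sets hold 1 value on all arrays.

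Probe sets were joined to the platform annotation, and symbols were updated through Entrez identifiers and the RefSeq table of Xenopus_laevis_v10.1. Of 32635 probe sets, 160 were controls, 15495 had 1 symbol, 279 several and 16701 none. Differences of log2 values were taken with Python 3.11.15 and pandas 2.3.3. With 1 array per group there was no test, and the number of arrays limits the precision. The genes named are all probe sets of the members, their other copies, the 5 brightest probe sets on the DMSO array, the 3 nearest genes of each member, and up to 4 genes per list with the largest differences from DMSO for each compound. Chosen after their values were seen were rbp4, other copies and second probe sets of named genes, hrg.L, genes below the filter, the adjoining genes and the spiked controls. So were the marker genes named for passing the filter through 1 array, and cela1.4.L and hba1.S.

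Alternatives were quantile normalization, median centring, subtraction of a loess trend (span 0.3), other level filters and fold thresholds, means of probe sets, leaving out probe sets that cross-hybridise by their name, bins of equal size and, added after seeing the data, alignment on spiked controls. The counting was tested on simulated data.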

Additional observations from a re-analysis of the deposited data

How the results depend on the processing

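No paired analysis was possible because each group is 1 array. Of the values computed for the 3 member genes, the counts over the 8 lists and the spread at the top of the scale under the alternatives, 54 kept their place and 18 moved. The 54 include the mean of probe sets for vtgb1.L, which cannot move because that gene has 1 probe set. A member value counted as moved when it shifted by more than the SD between probe sets of a gene or crossed 1.5-fold, and a count or an SD when it changed by over 1.5 times. Median centring, quantile normalization and the loess trend moved no member value and no list count. Other level filters, means of probe sets in the lists and the exclusion of cross-hybridising probe sets moved no list count. The level filters and the exclusion were not applied to the member values. Since the exclusion drops esr1.L from the lists by the names of its probe sets, it cannot check the esr1.L difference. The mean over both esr1.L probe sets gave 0.37 for pregnenolone. Alignment on the spiked controls, added after seeing the data, gave esr1.L 0.57 for pregnenolone and -0.47 for artemisinin, and gave vtga2.L -0.28 and vtgb1.L -0.35 for artemisinin. Under it 12 list genes were higher and 17 lower with pregnenolone, and 4 were higher and 22 lower with artemisinin, beside 290 of all genes higher and 621 lower with pregnenolone and 114 and 763 with artemisinin. It moved 8 list medians, all with artemisinin, and 152 other list medians stayed within the SD between probe sets. The 152 include the medians at other fold thresholds, which a threshold cannot change, so their number does not measure stability. At a lower threshold of 0.32 on the log2 scale 37 list genes were higher and 24 lower with pregnenolone, and 19 and 19 with artemisinin, where 14.99% and 11.8% of all genes passed with pregnenolone and 8.42% and 8.92% with artemisinin. At 2-fold the counts were 4 and 4 with pregnenolone and 3 and 0 with artemisinin, where the shares of all genes were 1.86% and 1.39% with pregnenolone and 1.27% and 0.71% with artemisinin. In the top bin of equal size, which reaches down to 12.47, the SD of the differences was 0.28 for pregnenolone and 0.14 for artemisinin. The vitellogenin probe sets stood 0.08 to 0.28 below the maximum of the DMSO array, and all array maxima lay between 14.58 and 14.62. A 1.5-fold rise above DMSO would therefore have placed them above every probe set of the arrays. Whether a signal can rise that far, and whether theirs was compressed, was not tested.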
